A study of Mus musculus with 4 samples.

Results

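Lubricin and 7 other genes of the joint surface are described here across 4 cartilage libraries: Prg4, Creb5, Erg, Vit, Abi3bp, Clu, Gdf5 and Col22a1. They were chosen by name, as genes of the superficial zone of articular cartilage and of the cells along the embryonic joint line, and all 8 were found among the 24421 rows of the count table. The libraries came from 2 mice of strain C57BL/6J, M04 and M05, 8 weeks after surgery on both knees. In each mouse the medial meniscus of 1 knee was destabilized (DMM), an operation that leads to osteoarthritis, and the other knee had sham surgery, so that each surgery group holds 2 libraries. The labels describe the tissue as the superficial zone of knee cartilage, taken from the medial femoral condyle. All samples are labelled wild type, but the design text of the series calls those of M05 knockout without naming a gene, so M05 and M04 are compared below as 2 animals. The free text of both sham samples speaks of a DMM knee, and their titles and treatment labels were followed. Age, sex and any pooling of tissue are not stated in the labels.

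The superficial zone is the sliding surface of a joint. Its flat chondrocytes secrete lubricin, a mucin-like glycoprotein that coats the cartilage and lowers friction, and lubricin is also made by the lining cells of the synovium. These chondrocytes descend from the joint interzone, a band of embryonic cells that expresses the growth factor Gdf5 and later the transcription factor Erg. Creb5 is a transcription factor that enables Prg4 expression in the superficial zone, in concert with TGF-beta signalling.

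The libraries held 12712425 to 19336628 counts, of which haemoglobin rows took 25.8% to 35.3%. Chondrocyte transcripts were present in each of them. Levels below are CPM, counts scaled to library size with TMM factors, and the values of 4 libraries are given in the order M04 sham, M04 DMM, M05 sham and M05 DMM. The 18 genes of a chondrocyte marker list, which includes Col2a1 and Acan, summed to 6185, 7132, 1772 and 5492 CPM. The sham library of M05 was thus far below the other 3 in chondrocyte transcripts. The members that differed, and the other genes named as higher in DMM knees, are also given without it. In tissue samples of this kind, fewer cells of a type and less RNA per cell cannot be told apart.

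The 8 genes covered a wide range of levels. On the FPKM scale of the authors, which is relative to transcript length, Clu was highest, with 143, 141, 64.6 and 143 FPKM. Prg4 followed with 74.7, 78.3, 24.3 and 62.9 FPKM, and it was below Clu in each of the 4 libraries. Clu encodes clusterin, a secreted chaperone. Both genes were among the abundant transcripts, since Prg4 lay at the 84.4th to 94.6th and Clu at the 93.0th to 96.8th percentile of the genes with a value above 0.

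The next 4 genes were at a middle level. Col22a1, a collagen found at tissue junctions such as that of muscle and tendon and in the superficial layer of cartilage, had 5.39 to 6.46 FPKM. Vit, which encodes the matrix protein vitrin, had 2.94 to 5.31 FPKM and Erg 3.63 to 4.28 FPKM, so that these 2 neighbours overlapped. Abi3bp, a matrix protein that binds cells and is known to hold back the growth of progenitor cells, had 0.956 to 3.09 FPKM and lay below Erg in each library.

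Gdf5 and Creb5 were at the limit of detection. Gdf5 had 4, 3, 1 and 1 counts. Creb5 had 1 count in the M05 sham library and 0 in the other 3, which allows up to 0.222 CPM for M04 sham, 0.201 CPM for M04 DMM and 0.246 CPM for M05 DMM. Both fell under the filter on low counts. In the fit without that filter neither passed for DMM against sham (adjusted p = 1.0 for both, edgeR) or for M05 against M04 (0.894 for Gdf5 and 0.915 for Creb5), and no ratio is given at so few counts. Transcripts of both were thus scarce in the same libraries in which Prg4 had 1534.5 to 4717.5 counts.

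**Figure D1:**
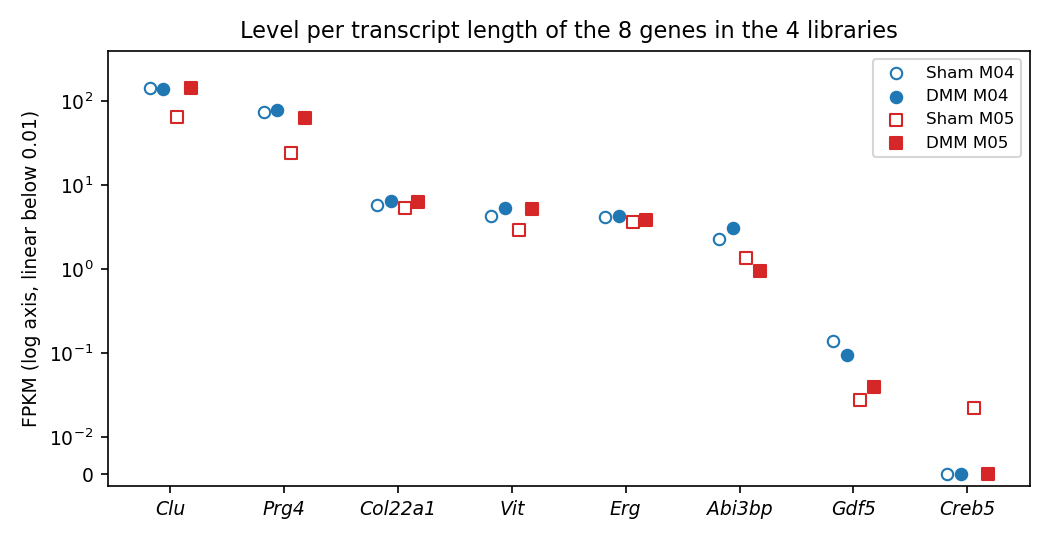
FPKM of the 8 genes (log axis, linear below 0.01) in each of the 4 libraries, 1 point per library, with open symbols for sham, filled symbols for DMM, circles for M04 and squares for M05. Clu and Prg4 stand above the rest, Gdf5 lies below 0.15 FPKM, and Creb5 is at 0 in 3 of the 4 libraries.

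The comparison of DMM with sham knees asks how the joint surface differs after the meniscus is destabilized. Prg4 was counted at 299.8 CPM in the sham and 315 CPM in the DMM knee of M04, and at 90.0 CPM in the sham and 241 CPM in the DMM knee of M05. The sham library of M05 stood apart as the low one, while the other sham library lay between the 2 DMM libraries, so that the groups overlapped. The DMM to sham ratio of Prg4 was 1.05 in M04 and 2.68 in M05. On the log2 scale these are 0.07 (95% interval 0.01 to 0.13) and 1.42 (1.33 to 1.51). These exact binomial intervals cover counting error alone, not the spread between animals.

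Prg4 rose past the threshold in the fit across all genes, with a log2 change of 0.74 (SE 0.18, adjusted p = 0.0359, edgeR's quasi-likelihood test with the mouse as a block, 2 mice). It was the 1 member of 6 tested that did, against 0.649% of the 13103 genes tested that passed in either direction and 0.633% that passed as higher. The SE drew mainly on the trend across genes, with 47.4 prior against 1 residual degree of freedom, whereas the SE from the log2 ratios of the 2 mice alone was 0.68. Without the mouse as a block the value was 0.52 (adjusted p = 1.0). Fits without 1 library leave no residual degree of freedom for the block and were run without it. Without the sham library of M05 the value was -0.11 (adjusted p = 1.0), and without that of M04 it was 1.63 (adjusted p = 8.56e-06). Of 15 alternative settings, 3 kept the call and 12 did not. In the chondrocyte list, 9 of 18 genes were higher in DMM knees past the threshold and none was lower. With edgeR without the block 0 of the 18 passed (3 at an unadjusted p under 0.05), without the sham library of M05 as well 0 passed (2 unadjusted), and with DESeq2 0 passed (5 unadjusted). The part of this list in the Prg4 result was not tested.

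**Figure D2:**
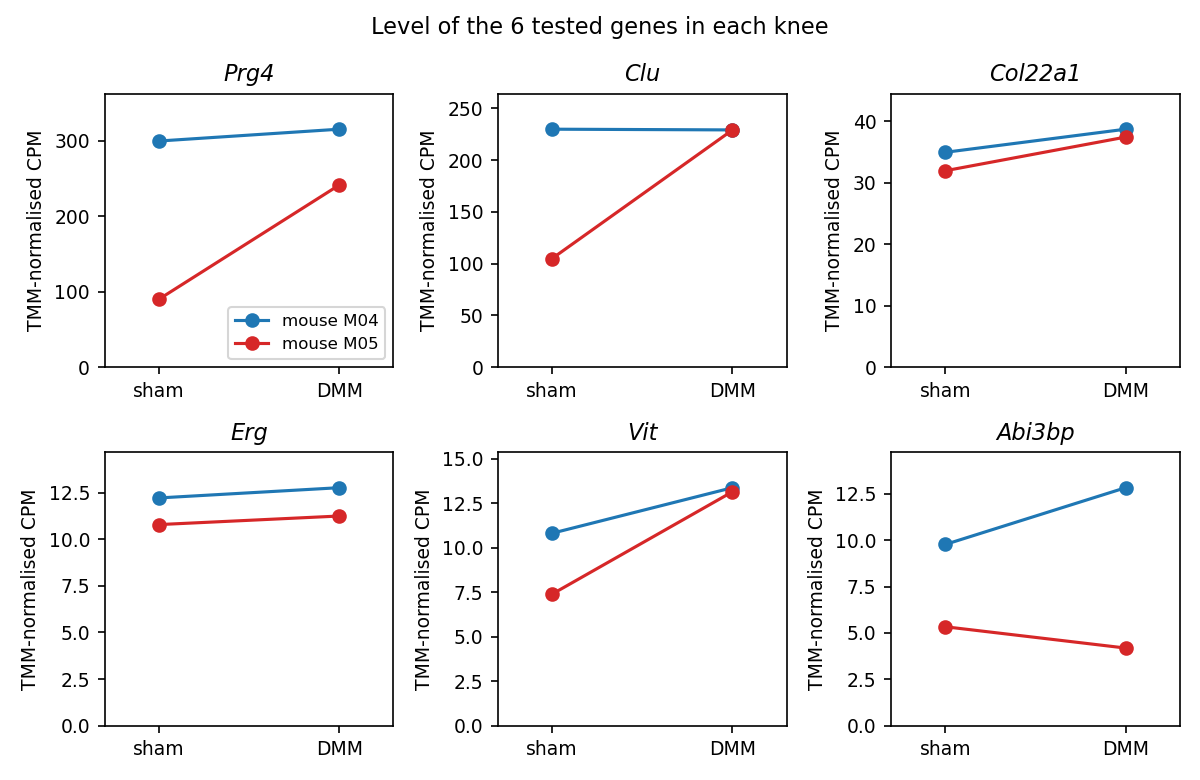
TMM-normalised CPM of the 6 tested genes in the sham and the DMM knee of each mouse, 1 point per library, with a line joining the knees of a mouse and axes that start at 0. For Prg4 and Clu the sham knee of M05 is the low point, while Erg and Col22a1 are nearly level in both mice.

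Clu showed the same arrangement as Prg4. It was counted at 229.9 CPM in the sham and 229.2 CPM in the DMM knee of M04, and at 105 and 229.1 CPM in those of M05. The other 3 libraries were thus within 1 CPM of each other, and the sham library of M05 was lower, by a factor of 2.19 against M04 sham. From the log2 ratios of the 2 mice alone, the SE of Clu was 0.57. The SE of the fit drew mainly on the trend across genes, with 612 prior against 1 residual degree of freedom. The fitted log2 change of 0.56 (SE 0.16, adjusted p = 0.0574, edgeR) did not pass the threshold. It was -0.0067 without the sham library of M05 and 1.13 without that of M04, where it passed (adjusted p = 0.00683), both without the block. It also passed among genes averaging 5 CPM or more, at 0.56 (adjusted p = 0.0457), and it did not pass in the other 13 of 15 alternative settings.

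Vit had 10.8 CPM in the sham and 13.4 CPM in the DMM knee of M04, and 7.39 and 13.1 CPM in those of M05. Both DMM libraries were above both sham libraries. The ratio was 1.24 in M04 and 1.78 in M05, and the log2 fold change of 0.56 (SE 0.26, adjusted p = 0.825, edgeR) did not pass. Without the sham library of M05, and without the block, the value was 0.29 (adjusted p = 1.0). Col22a1 had 35.0 and 38.7 CPM in M04 and 31.96 and 37.4 CPM in M05, again with no overlap between the groups, and a fold change of 0.19 on the log2 scale (SE 0.17, adjusted p = 1.0). Vit and Col22a1 were the 2 of 6 members whose groups did not overlap, and 25.6% of all genes tested had no overlap.

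Erg and Abi3bp did not pass. Erg, which also marks endothelium and blood-forming cells, had 12.2 and 12.8 CPM in M04 and 10.8 and 11.2 CPM in M05, and its fold change was 0.06 on the log2 scale (SE 0.25, adjusted p = 1.0, edgeR). Abi3bp had 9.78 and 12.8 CPM in M04 and 5.34 and 4.19 CPM in M05. Its log2 ratio was 0.39 (counting interval 0.07 to 0.72) in M04 and -0.35 (-0.87 to 0.16) in M05, and the fitted log2 fold change was 0.05 (SE 0.31, adjusted p = 1.0). It was the 1 tested member that was lower in the DMM knee of M05, and Clu was the 1 tested member with a ratio below 1 in M04, by less than counting error. In all, 4 of 6 members were higher in the DMM knee of both mice, against 23.2% of the genes tested.

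**Figure D3:**
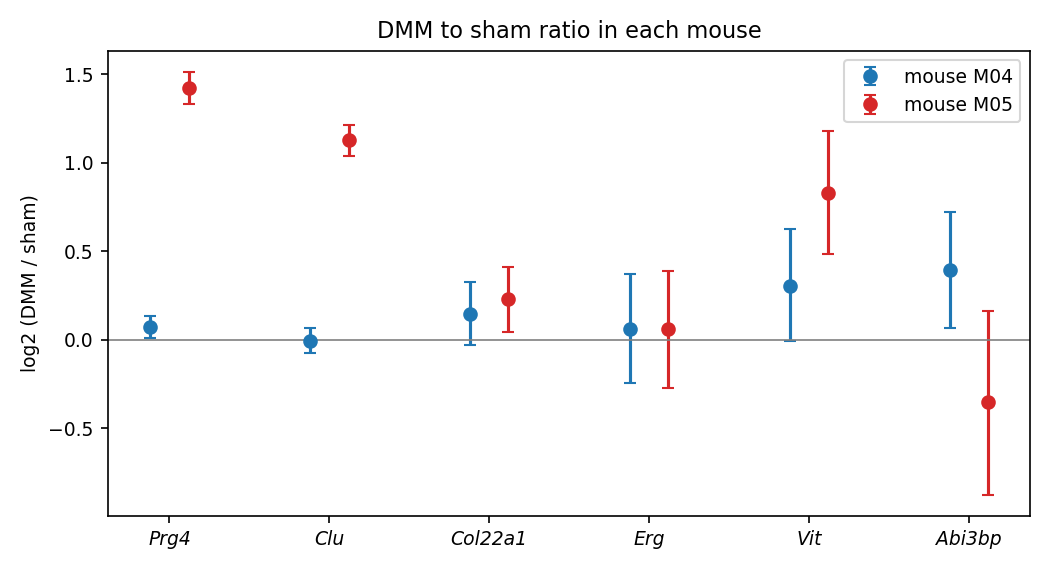
Log2 ratio of DMM to sham in each mouse for the 6 tested genes, from TMM-normalised CPM, with 95% exact binomial intervals for counting error. Prg4 and Clu lie near 0 in M04 and above 1 in M05, while Erg lies near 0 in both mice.

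The median log2 ratio of the 6 tested members was 0.11 in M04 and 0.53 in M05. The median of their fitted log2 fold changes was 0.37, beside -0.01 for all genes tested. Whether the mice differed in response could not be tested with 1 library per knee, so these values are a description.

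Set against the chondrocyte list, Prg4 was nearly level. Per 1000 counts of that list, Prg4 had 48.5, 44.2, 50.8 and 44.0 counts. The highest of these values was 1.16 times the lowest, whereas the Prg4 CPM values spanned a factor of 3.51. The DMM to sham ratio on this scale was 0.913 in M04 and 0.866 in M05. Col2a1 alone made up 41.0% to 54.1% of the list. Without it the Prg4 values were 105, 95.3, 86.1 and 87.7, a span of 1.226, with the sham library of M05 lowest in place of highest. In the fit with libraries scaled to this list, the value for Prg4 was -0.17 (adjusted p = 0.909, edgeR), while the median of all genes moved to -0.93. With Col2a1 left out of the list the log2 fold change of Prg4 was -0.060.

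The other members did not keep such a constant ratio to the chondrocyte list. Clu had 37.2 and 32.2 counts per 1000 in M04 and 59.2 and 41.7 in M05. Col22a1 had 5.65 and 5.43 in M04 but 18.0 and 6.82 in M05, and Erg had 1.98, 1.79, 6.09 and 2.05. Both were highest in the library with the fewest chondrocyte transcripts, and on the CPM scale they varied by factors of 1.21 and 1.18 over the 4 libraries. On the chondrocyte scale Clu spanned a factor of 1.84, Vit one of 2.38 and Abi3bp one of 3.95. With Col2a1 left out of the list, the spans were 1.448 for Clu and 1.857 for Vit, beside 1.226 for Prg4. They were 2.613 for Col22a1, 2.674 for Erg and 3.356 for Abi3bp. The differences between members in this span were not tested.

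**Figure D4:**
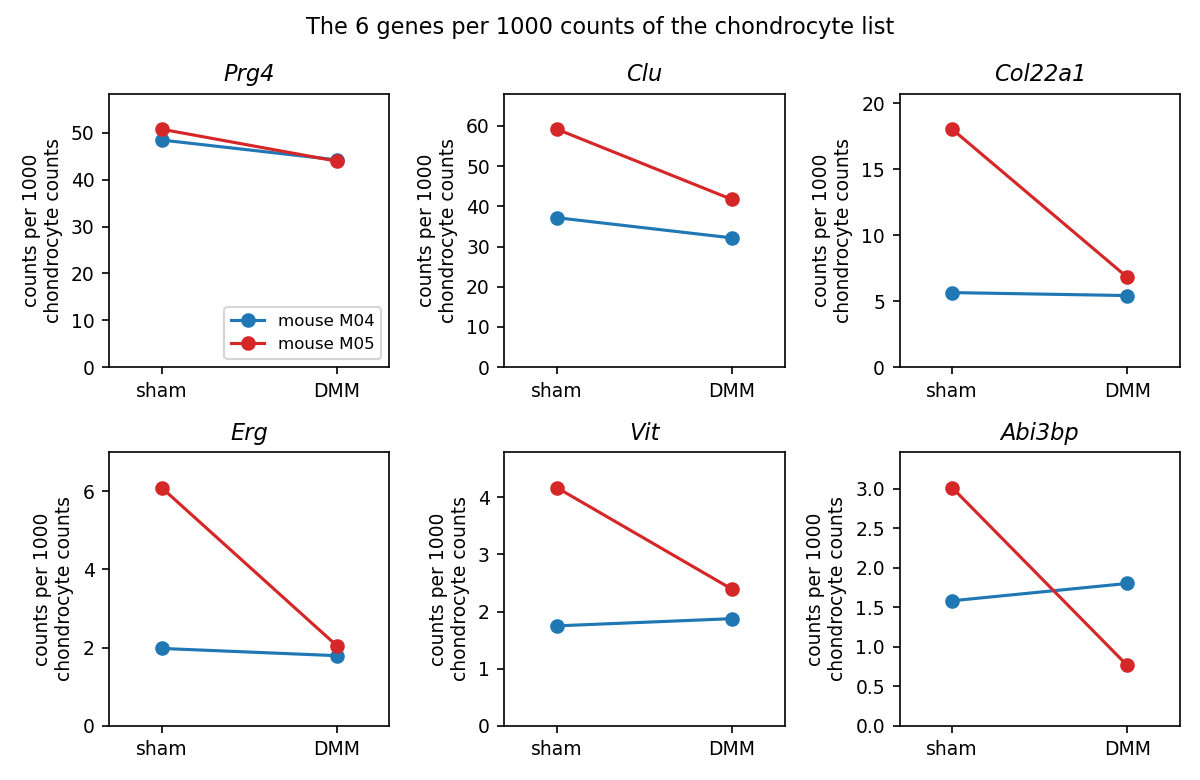
Counts of each of the 6 genes per 1000 counts of the 18-gene chondrocyte list, in the sham and the DMM knee of each mouse, 1 point per library, with axes that start at 0. Prg4 lies between 44.0 and 50.8 in the 4 libraries, and all 6 genes are highest in the sham library of M05, by a wider margin for Col22a1 and Erg than for Prg4. For Prg4 this order does not hold with Col2a1 left out of the list.

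The genes whose profile over the 4 libraries was closest to that of Prg4 were sought among 5014 named genes that averaged 20 CPM or more, by the Euclidean distance between centred log2 CPM values. The nearest were Mfi2 (distance 0.25), which encodes melanotransferrin, then Col27a1 (0.25), a fibrillar collagen of cartilage, and Col9a1 (0.25), a chain of the collagen on the surface of type II fibrils. Gpnmb (0.27), a membrane glycoprotein, and the cartilage matrix protein Matn3 (0.28) came next. Col9a1 had 120 and 155 CPM in M04 and 39.1 and 117 CPM in M05. Each of these 5 genes was lowest in the sham library of M05, as was Prg4. This shared low point follows from the choice by distance and is not a separate result.

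The other members had different neighbours. Clu was closest to Mfge8 (0.25), Clec3a (0.29) and Ecm1 (0.30), which encode secreted or matrix proteins. Vit was nearest to Ppa1 (0.093), Ephx1 (0.16) and Pltp (0.16), and Abi3bp to Hnrnpl (0.28), Sdc4 (0.34) and Klf13 (0.36). Erg and Col22a1 were almost level, so the choice by distance gave level genes too. Examples were Smarca2 (0.014) for Erg and Prune (0.028) for Col22a1. Between members, the smallest distance was that of Erg and Col22a1 (0.16), while Prg4 was nearest to Clu (0.54).

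Of 10 other genes known from the surface zone, 9 were tested and 1 rose in DMM knees. This was Dcn, which encodes decorin, a small proteoglycan that binds collagen fibrils. It had 204, 348, 146 and 325 CPM, and its log2 change was 0.96 (SE 0.15, adjusted p = 5.37e-07, edgeR). Both DMM libraries were above both sham libraries. Without the block the value was 0.94 (adjusted p = 0.757), and without the M05 sham library as well it was 0.72 (adjusted p = 1.0), while DESeq2 kept the call (adjusted p = 1.23e-04). The matrix proteins Cilp2 (0.66, adjusted p = 0.223) and Thbs4 (0.42, adjusted p = 0.913) did not pass. The median log2 fold change of the 9 was 0.42, and 6 of them were positive.

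Of 14 genes of the joint interzone and its descendants, 4 were counted well enough to be tested, and 1 rose. Barx1, a homeobox transcription factor of developing joints, had 1.04 and 3.21 CPM in M04 and 0.352 and 5.17 CPM in M05, from 14, 48, 6 and 63 counts. Its log2 change was 2.64 (SE 0.62, adjusted p = 0.0054, edgeR). It was higher in the DMM knee of both mice, at a low level. With DESeq2 0 of the 4 genes passed, and Barx1 did not pass with the haemoglobin rows left out before scaling (adjusted p = 0.1, edgeR). Without the block it did not pass (2.61, adjusted p = 0.86), nor without the M05 sham library as well (2.0, adjusted p = 1.0). Wnt4 (0.27), Lgr5 (1.03) and Trps1 (0.04) did not pass, each with an adjusted p of 1.0. Of the other 10 genes, Gdf7 and Dcx had 0 counts in all 4 libraries. Gdf6, a close relative of Gdf5, had 0.370 and 1.20 CPM in M04 and 0.176 and 0.328 CPM in M05. With so few counts a difference in the Gdf5 relatives was not detectable at this depth.

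Among 18 genes chosen as linked to Prg4 expression, some only as parts of a pathway, 17 were tested and 1 rose, the parathyroid hormone receptor Pth1r. It had 97.5 and 139 CPM in M04 and 63.6 and 105 CPM in M05 (log2 value 0.62, SE 0.16, adjusted p = 0.0172, edgeR). Pth1r is also expressed in deeper cartilage and in bone cells, and the 8 osteoblast markers summed to 1378, 1681, 1737 and 1873 CPM. Of these markers 1 of 8 rose in DMM knees, the bone matrix protein Ibsp (0.56, adjusted p = 0.0486), with 257.7, 464.5, 329.5 and 399.5 CPM. Without the block neither gene passed, at 0.60 for Pth1r and 0.56 for Ibsp, and without the M05 sham library as well the values were 0.32 and 0.74, each with an adjusted p of 1.0. Neither Pth1r nor Ibsp passed with DESeq2. With the haemoglobin rows left out before scaling they did not pass either (adjusted p = 0.133 for Pth1r and 0.31 for Ibsp, edgeR). The part of bone cells in the Pth1r values was not tested. The mechanosensitive coactivator Yap1 (0.98, adjusted p = 0.211) and the ligand Tgfb2 (1.14, adjusted p = 0.578) did not pass. Foxo1 (-0.03) and Nfatc1 (-0.0059), transcription factors known to preserve lubricin, each had an adjusted p of 1.0. The median of the 17 log2 fold changes was 0.03, and 9 were positive.

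None of the 5 tested relatives of the members and none of the 3 lubricin receptors passed in this comparison. Fli1, the nearest relative of Erg, had 11.5 and 7.82 CPM in M04 and 6.22 and 2.05 CPM in M05 (log2 value -1.0, adjusted p = 0.268, edgeR). The relatives of Creb5, Atf2 and Atf7, were counted at 12.6 to 16.5 CPM and 17.2 to 23.7 CPM. Col12a1, a relative of Col22a1, had a log2 fold change of 0.70 (adjusted p = 0.286) and Col14a1 one of 0.49 (adjusted p = 1.0). The receptor Cd44 had 80.5 to 102 CPM, Tlr2 17.3 to 18.3 CPM and Tlr4 3.41 to 9.32 CPM.

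Some members are also expressed outside cartilage, and markers of those tissues were measured in the same libraries. The 9 synovial and capsular fibroblast genes summed to 104 and 102 CPM in the sham and 112 and 108 CPM in the DMM libraries. Most of this sum was Pi16, at 34.9 to 45.2 CPM, and Cd34, at 23.1 to 26.8 CPM. Pdpn had 0.889 and 1.34 CPM in M04 and 0.645 and 1.40 CPM in M05. The median fold change of the 9 was 0.36 on the log2 scale, and 6 were positive. Past the threshold 1 of 9 rose, Clec3b (2.19, adjusted p = 0.00112, edgeR). With DESeq2 0 of the 9 passed, while Clec3b passed with the haemoglobin rows left out before scaling (adjusted p = 0.0328, edgeR). Clec3b did not pass without the block (2.12, adjusted p = 0.803) or without the M05 sham library as well (1.57, adjusted p = 1.0). The 10 endothelial genes summed to 362 and 285 CPM in sham and 336 and 321 CPM in DMM libraries, and none of them passed. Vwf alone had 126 to 172 CPM of these sums. The 6 megakaryocyte genes summed to 1268, 1099, 1030 and 1308 CPM, and none of them passed. The 10 skeletal muscle genes summed to 158, 429, 565 and 171 CPM, and none of them passed. The 5 tendon markers summed to 8.82, 19.9, 10.03 and 13.9 CPM, higher in the DMM knee of both mice. Most of this sum was Fibin, with 8.59, 17.8, 8.50 and 11.7 CPM (0.76, adjusted p = 0.289), which did not pass, while Scx, Tnmd, Mkx and Kera were each below 1 CPM and the first 3 had 0 counts in the M04 sham library. The part of these tissues in the values of the members was not tested.

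The second comparison set M05 against M04 in the same fit, and compares 2 animals. Prg4, Abi3bp and Clu were lower in M05 past the threshold, which is 3 of 6 tested members, against 2.6% of all genes tested that differed in either direction. The other 3 members did not pass, and no member was higher in M05. In the chondrocyte list, 10 of 18 genes were lower in M05 and none was higher past the threshold. With edgeR without surgery as a second term 0 of the 18 passed (2 at an unadjusted p under 0.05), and with DESeq2 1 passed (6 unadjusted). The chondrocyte list summed to 6185, 7132, 1772 and 5492 CPM, lowest in the sham library of M05. Of 7 neutrophil genes 2 were higher in M05, S100a8 (0.95, adjusted p = 0.00242, edgeR) and S100a9 (0.88, adjusted p = 0.0111), and that list summed to 37670, 37780, 63640 and 54260 CPM. Of these 7 genes 0 passed without surgery as a second term (6 unadjusted), and 1 passed with DESeq2. The part of these cell types in the values of the members was not tested.

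The 3 genes differed between the mice in separate ways. Prg4 had a log2 difference of -1.06 (SE 0.19, adjusted p = 2.06e-04, edgeR), with a level 3.33 times higher in M04 among the sham knees and 1.31 times higher among the DMM knees. Clu had one of -0.56 (SE 0.16, adjusted p = 0.0206) and was 2.19 times higher in M04 among the sham knees, while the DMM knees were equal within counting error (ratio 1.0). Abi3bp had one of -1.23 (SE 0.31, adjusted p = 0.00693) and was higher in M04 in both kinds of knee, by 1.83 times among sham and 3.07 times among DMM libraries. Without the sham library of M05, and without surgery as a term, Prg4 stood at -0.35 (adjusted p = 0.254), Clu at -0.0018 (adjusted p = 0.996) and Abi3bp at -1.43 (adjusted p = 0.0768). Without the replicate block, that is, without surgery as a second term, none of the 3 passed, with adjusted p-values of 0.655, 0.741 and 0.121 for Prg4, Clu and Abi3bp. Each of the 3 kept its call in 4 alternative settings, of 15 for Prg4 and Clu and of 14 for Abi3bp.

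Among relatives of the members, Fli1 (-1.34, adjusted p = 0.00746, edgeR) and Col12a1 (-1.34, adjusted p = 1.1e-05) were also lower in M05. Erg itself had a log2 difference of -0.18 (SE 0.25, adjusted p = 0.828) and Col22a1 one of -0.09 (SE 0.17, adjusted p = 0.891). Of the 10 endothelial markers, 2 were lower in M05 past the threshold and none was higher. The 2 were Cdh5 (-0.99, adjusted p = 0.0011, edgeR) and Kdr (-0.93, adjusted p = 0.0156). The median of the 10 differences was -0.15, and 4 of them were positive. Of the 6 megakaryocyte genes, 1 was lower, Gp1ba (-0.59, adjusted p = 0.02), none was higher past the threshold, and 3 differences were positive. Vit differed by -0.28 (SE 0.26, adjusted p = 0.698). Of the 9 tested surface-zone genes outside the members, Cilp2 (-0.94, adjusted p = 0.00244, edgeR) and Thbs4 (-0.74, adjusted p = 0.0205) were lower in M05. Of the 17 tested genes linked to Prg4 expression, Pth1r was lower (-0.51, adjusted p = 0.0426). None of these 2 lists was higher past the threshold, and without surgery as a second term no gene of either list passed. In that fit no relative of the members, endothelial marker or megakaryocyte gene passed either (4, 2 and 1 at an unadjusted p under 0.05).

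The value of Prg4 for DMM against sham depended on how libraries were scaled and which were used. It lay between 0.70 and 0.86 in the settings that kept all 4 libraries and the mouse as a term, apart from scaling to the chondrocyte list. Its adjusted p nevertheless ran from 0.00202 without robust moderation to 1.0 with DESeq2. When the haemoglobin rows were left out before scaling, the log2 fold change of Prg4 was 0.75 but its adjusted p was 1.0. In that fit the prior degrees of freedom of Prg4, which set how far its spread is drawn to the trend, were 1.66 in place of 47.4.

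**Figure D5:**
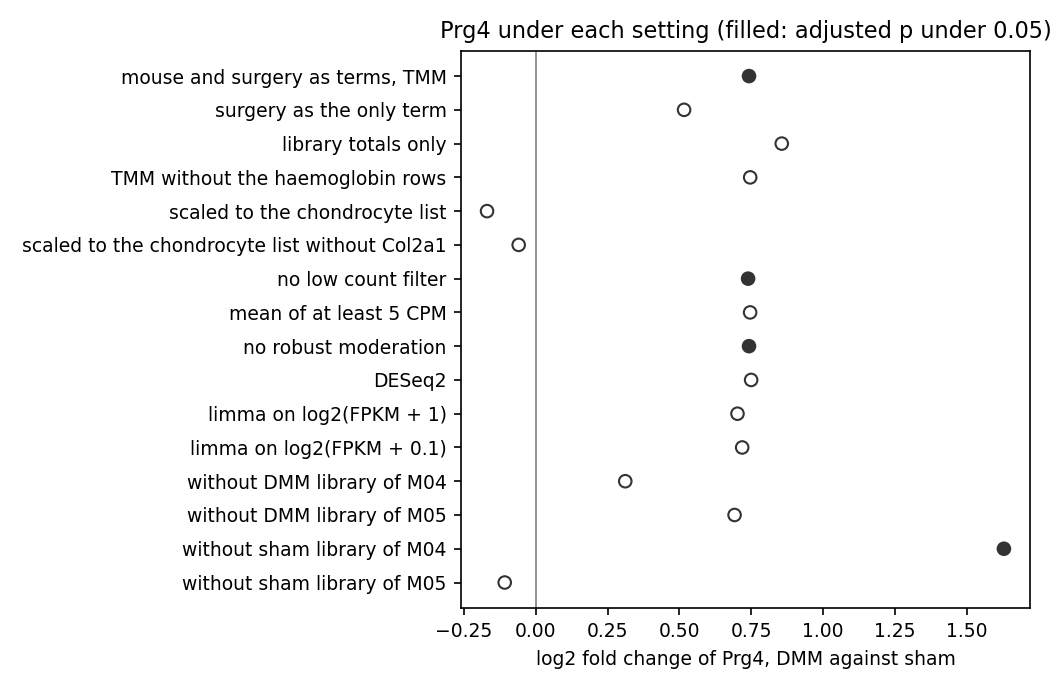
Log2 fold change of Prg4, DMM against sham, under each setting (1 row per setting), with filled points for an adjusted p under 0.05. Values range from -0.17, with libraries scaled to the chondrocyte list, to 1.63, without the sham library of M04, and 4 of the 16 points are filled.

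In the mouse annotation used for names, exons of Prg4 overlap those of Tpr, a nuclear pore gene on the other strand, and the sources used here do not say whether the counts kept strand. Tpr had 76.9 and 70.8 CPM in M04 and 59.7 and 64.4 CPM in M05. It was below Prg4 in each library, and reads shared between both genes cannot be told apart.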

How the data were processed

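Poly(A) RNA gave reads of 100 bases from 1 end (HiSeq 2500, per the labels' protocols). The submitters' processing notes name GRCm39 as genome build. For the aligner, the counter and strandedness: not given in the sources used here. The authors' deposited table holds estimated counts per gene, and 4 further per-sample columns of it were not used. The authors' deposited FPKM values, per transcript length and depth, served for levels between genes and for alternatives.

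Estimated counts were rounded and tested with edgeR 4.0.16 (R 4.3.3): filterByExpr (13103 of 24421 rows), TMM, and a robust quasi-likelihood fit with mouse and surgery as terms, which leaves 1 residual degree of freedom. Benjamini-Hochberg adjustment was over all genes tested, with a threshold of 0.05. SE was taken as the fitted change over the root of its F statistic. For 83.0% of genes the prior degrees of freedom were infinite. Knees are paired by animal per the labels (correlation of their deviations from group means: 0.18). Alternatives used DESeq2 1.42.0, limma 3.58.1 on log2(FPKM + 1) and log2(FPKM + 0.1), other scalings and filters, and fits without each library, which also lack the mouse or surgery block. The script was tested on simulated data.

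The members, gene lists and rules were chosen with earlier results of these data known. Named genes are the members and, in the surface-zone, joint-line, Prg4 expression, relative and receptor lists, the genes past the threshold. For DMM against sham, the genes with the smallest p in each of these lists are also named. Genes of the cell type lists are named only in part. Nearest profiles were taken among genes averaging 20 CPM or more (5 for Prg4, 3 for each other tested member). Other genes named, such as Trps1, Gdf6, Fibin, S100a8, Foxo1, Nfatc1, Atf2 and Tpr, were chosen after their values were seen, as was the scaling to the chondrocyte list without Col2a1. Symbols not in the count table were matched through RefSeq synonyms (2, both in the chondrocyte list). RefSeq and GENCODE M21 are on GRCm38, so no coordinates are given.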

Additional observations from a re-analysis of the deposited data

How the results depend on the processing

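The 4 fits that leave out 1 library also lack the replicate block, so they change both choices. Without the replicate block alone, 0 genes passed for DMM against sham (322 at an unadjusted p under 0.05) and 0 for M05 against M04 (1819), and Prg4 stood at 0.52 for DMM against sham. In place of 85 genes for DMM against sham, 53 passed with library totals only, 23 with TMM without the haemoglobin rows and 13 with DESeq2. None (0) passed with libraries scaled to the chondrocyte list (1 unadjusted), to that list without Col2a1 (5), or with limma on FPKM (530 and 474 with pseudocounts of 1 and 0.1). In place of 341 genes for M05 against M04, these settings gave 912, 103, 57, 0 (17 unadjusted), 1, 0 (1096 unadjusted) and 0 (1062 unadjusted), and a threshold of 0.1 gave 569. Leaving out 1 library gave 0 to 121 genes for surgery and 0 to 331 for mouse. The median of all genes for DMM against sham moved to 0.103 with library totals, -0.929 with the chondrocyte list and -0.818 without Col2a1, and for M05 against M04 to -0.248, 1.08 and 0.847. Prg4 for DMM against sham stood at 0.86 with library totals, 0.75 without haemoglobin rows, 0.75 at a mean of 5 CPM or more (adjusted p = 0.0524, edgeR), 0.75 with DESeq2, and 0.70 and 0.72 with limma. Leaving out 1 library gave -0.11 to 1.63.

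Scaled to the chondrocyte list, and then to that list without Col2a1, the values for DMM against sham were -0.17 and -0.060 for Prg4, -0.36 and -0.25 for Clu, -0.35 and -0.24 for Vit, -0.73 and -0.62 for Col22a1, -0.86 and -0.75 for Erg, and -0.88 and -0.77 for Abi3bp. For M05 against M04 they were 0.52 and 0.29 for Clu, 0.80 and 0.56 for Vit, 1.0 and 0.76 for Col22a1, and 0.91 and 0.67 for Erg, and Prg4 stood at 0.029 and -0.21 and Abi3bp at -0.15 and -0.38, none of which passed. TMM without the haemoglobin rows also ended the calls between the mice for Prg4, Clu and Abi3bp (adjusted p = 0.514, 0.448 and 0.0503, edgeR), and DESeq2 those for Prg4 and Clu (adjusted p = 0.437 and 0.705). Abi3bp for DMM against sham was -0.037 with limma at a pseudocount of 0.1. Leaving out 1 library gave -0.0067 to 1.13 for Clu, -0.027 to 0.16 for Erg and -0.84 to 0.77 for Abi3bp in that comparison, and -0.71 to 0.12 for Vit and -0.20 to 0.024 for Col22a1 between the mice. The cause of these changes was not tested beyond the shift of all genes. DESeq2 gave no adjusted p for Vit, Erg, Col22a1 and Abi3bp between the mice. With 1 library per knee, a difference in response between the mice could not be tested, and with 0 to 4 counts a library a difference in Gdf5 or Creb5 was not detectable at this depth.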
